A study of Mus musculus with 24 samples.

Results

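Mertk, Axl, Tyro3, Gas6, Pros1, Itgav, Itgb5 and Megf10 are the 8 genes described here, out of 22274 genes listed for the whole series. They were chosen by name, as the TAM receptors, the bridging molecules that bind them and their engulfment partners, and every 1 of them was present and passed the filter on low counts in each comparison. RNA was sequenced from brain tissue of male C57BL/6J mice in 8 groups of 3 libraries. In the PEL groups (pituitary stalk electrical lesion) the pituitary stalk, which carries axons from the hypothalamus to the posterior pituitary, was destroyed with a stereotaxically placed knife and a cathodic current. Hypothalamic tissue holding the supraoptic and paraventricular nuclei came from Sham mice (labelled day 0), from lesioned mice 3 days (PEL_3d) or 10 days (PEL_10d) after surgery, and from the same 3 states with growth hormone (Sham_GH, PEL_3d_GH, PEL_10d_GH). Hippocampal tissue came from Sham mice (HIP_Sham, day 0) and from lesioned mice at day 10 (HIP_PEL_10d). The dose, route and schedule of the hormone and the age of the mice are not given in the sources used here. The comparisons ask how these genes stood after the lesion, whether growth hormone (GH) changed them, and whether the hippocampus, which was not the site of the lesion, showed the same. The labels do not say that replicates were separate animals, so p-values measure only the spread between libraries.

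Efferocytosis is the clearance of dying cells by phagocytes. A dying cell exposes phosphatidylserine on its surface, the bridging molecules Gas6 and protein S (Pros1) bind that lipid, and the TAM receptor tyrosine kinases Tyro3, Axl and Mertk bind the bridging molecule. The integrin of the alpha-v chain (Itgav) and the beta-5 chain (Itgb5) takes part in the same uptake through another bridging molecule, Mfge8, and Megf10 is an engulfment receptor known from astrocytes. In the brain, microglia are known for Mertk and Axl, astrocytes for Mertk and Megf10, and neurons for Tyro3.

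Total counts per library ranged from 15095267 to 17973494, and the lowest count of any of the 8 genes in a library was 157. A pair of libraries went against their labels in marker genes. The library labelled Sham 1 had a summed FPKM of 7.83 over 9 hypothalamic marker genes, against 1314 to 1355 in Sham 2 and 3, 194.5 over 6 hippocampal markers, against 16.05 to 16.09, and 14795 over 6 choroid plexus markers, against 18.8 to 21.6. The library labelled HIP_Sham 1 had 1123 over the hypothalamic markers, against 1.29 to 2.65 in HIP_Sham 2 and 3, and 16.0 over the hippocampal markers, against 277 to 313. Whether the labels of these libraries were exchanged was not tested, so a value with the library labelled Sham 1 is one with a library of hippocampal and choroid plexus markers among the hypothalamic controls. The labels were left as they stand, the comparisons with Sham used Sham 2 and 3, and values with the library labelled Sham 1 are given beside them. The library titled as the third hippocampal Sham sample is labelled hypothalamus in its tissue field, yet carried 2.65 over the hypothalamic markers, and was kept with HIP_Sham. The library PEL_10d_GH 3 held 5479 FPKM of Pomc, the precursor of the pituitary hormone ACTH, against 24.2 and 30.2 in PEL_10d_GH 1 and 2.

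At day 3 after the lesion, 6 of the 8 genes were higher than in Sham, namely Itgb5, Pros1, Itgav, Mertk, Axl and Gas6. Of all 14905 genes tested, 22.2% were called higher. At day 10, 5 of the 8 were still higher (all of those but Gas6), against 7.97% of 14801 genes. None of the 8 was lower at either time, against 18.2% and 1.43% of all genes. Over 14 alternative settings the day 10 call was made in 14 for Axl, 13 for Pros1, 13 for Itgb5, 11 for Mertk and 5 for Itgav. Sham rests on 2 libraries, and with either left out fewer were higher at day 10, with 3 of the 8 against 1.28% of all genes without Sham 2 and 2 of the 8 against 1.89% without Sham 3. The median log2 fold change of the 8 was 1.26 at day 3 and 0.53 at day 10, beside −0.01 and −0.01 over all genes tested. Calls were made with edgeR's quasi-likelihood test at a Benjamini-Hochberg adjusted p under 0.05. With the library labelled Sham 1 among the controls, 5 genes were called at day 3, against 10.4% of all genes, and 2 at day 10 (Axl and Pros1), against 1.81%. In bulk tissue, fewer cells of a type and less RNA per cell cannot be told apart, and the same holds for more of either.

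**Figure D1:**
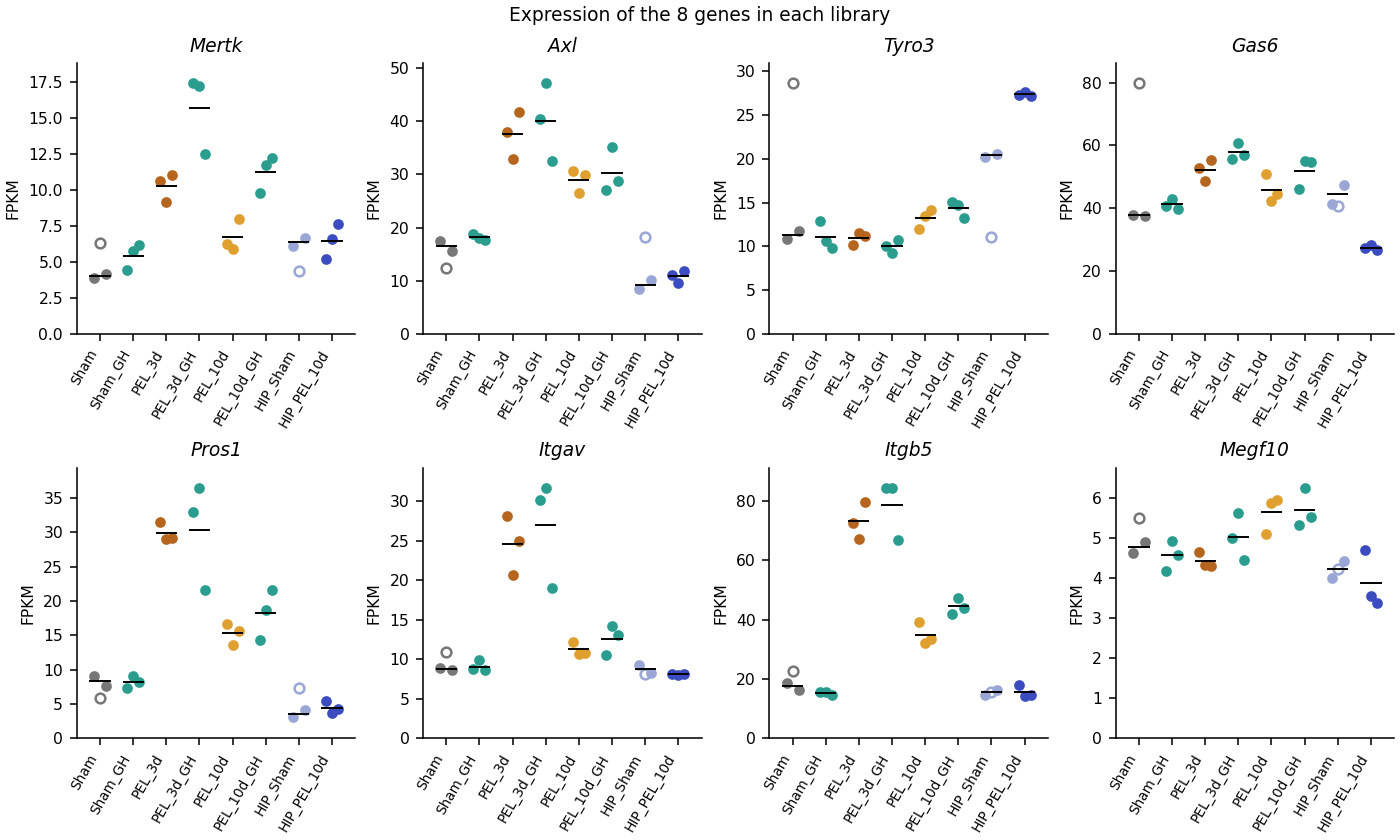
FPKM (vertical axis, linear from 0, a scale of its own for each gene) of the 8 genes in each of the 24 libraries, by group along the horizontal axis. Filled points are libraries, bars are their means, and the hollow points are the libraries labelled Sham 1 and HIP_Sham 1, which stand outside the means. The PEL_3d and PEL_3d_GH points of Itgb5, Pros1, Itgav, Mertk and Axl sit above all filled Sham points, while among the filled points Tyro3 is highest in the hippocampus.

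Mertk is the TAM receptor best known for the uptake of dying cells by macrophages and microglia (GRCm38, chromosome 2, 128698956 to 128802894, plus strand). Its level was 3.85 and 4.19 FPKM in Sham 2 and 3. It was 10.7, 9.20 and 11.03 FPKM in PEL_3d and 6.27, 5.91 and 7.99 FPKM in PEL_10d. Every lesioned library lay above both Sham libraries, and the levels of day 3 and day 10 did not overlap. The rise was 2.53-fold at day 3 (log2 fold change 1.34, SE 0.11, edgeR adjusted p = 6.42e-06) and 1.65-fold at day 10 (0.72, SE 0.14, adjusted p = 0.0167). With the library labelled Sham 1, which held 6.28 FPKM, the log2 fold change was 1.07 at day 3 (adjusted p = 0.0322) and 0.44 at day 10 (adjusted p = 0.605).

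Axl is the TAM receptor that binds Gas6 most tightly and is known to be induced in activated myeloid cells (chromosome 7, 25757273 to 25788705, minus strand). Its level was 17.5 and 15.5 FPKM in Sham 2 and 3, 37.9, 32.8 and 41.8 FPKM in PEL_3d, and 30.7, 26.5 and 29.9 FPKM in PEL_10d. The GH groups held 18.8, 18.1 and 17.6 FPKM in Sham_GH, 40.4, 47.2 and 32.6 FPKM in PEL_3d_GH, and 27.0, 35.2 and 28.7 FPKM in PEL_10d_GH. No lesioned library overlapped a filled Sham or Sham_GH library, and the GH and no-GH libraries overlapped at both days. Against Sham the rise was 2.26-fold at day 3 (log2 fold change 1.18, SE 0.10, edgeR adjusted p = 1.12e-05) and 1.72-fold at day 10 (0.78, SE 0.08, adjusted p = 0.00128), and both calls stayed with the library labelled Sham 1 (adjusted p = 0.00286 and 0.0328).

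Tyro3, the TAM receptor of neurons, did not pass the test against Sham at either day (chromosome 2, 119797733 to 119818104, plus strand). Its level was 10.8 and 11.8 FPKM in Sham 2 and 3, 10.1, 11.6 and 11.2 FPKM in PEL_3d, and 12.03, 13.5 and 14.1 FPKM in PEL_10d. The Sham and PEL_3d libraries overlapped, and the PEL_10d libraries lay just above both. The log2 fold change was −0.07 at day 3 (SE 0.09, adjusted p = 0.599) and 0.20 at day 10 (SE 0.10, adjusted p = 0.233). The library labelled Sham 1 held 28.6 FPKM, the highest of all 24, and with it the log2 fold changes were −0.69 and −0.43 (adjusted p = 0.343 and 0.791).

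Gas6, the bridging molecule that activates all 3 TAM receptors, was the most abundant of the 8 genes in Sham (chromosome 8, 13465374 to 13494490, minus strand). Its level was 37.9 and 37.5 FPKM in Sham 2 and 3, 52.8, 48.8 and 55.2 FPKM in PEL_3d, and 51.0, 42.2 and 44.6 FPKM in PEL_10d. Each lesioned library was above both Sham libraries. The rise was 1.37-fold at day 3 (log2 fold change 0.45, SE 0.07, edgeR adjusted p = 0.000784), and the log2 fold change at day 10 was 0.26 (SE 0.08, adjusted p = 0.0915). The library labelled Sham 1 held 79.8 FPKM of Gas6, and with it the value at day 3 was −0.03 (adjusted p = 0.97) and at day 10 −0.23 (adjusted p = 0.892). The exons of Gas6 share 34 bases with those of Tmem255b on the other strand, which had 10 to 64 counts per library, and whether counting used strand is not given in the sources used here.

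Pros1 encodes protein S, an anticoagulant of plasma that bridges phosphatidylserine to Mertk and Tyro3 (chromosome 16, 62854307 to 62929346, plus strand). Its level was 9.11 and 7.63 FPKM in Sham 2 and 3, 31.6, 29.0 and 29.2 FPKM in PEL_3d, and 16.7, 13.6 and 15.6 FPKM in PEL_10d. With GH it was 7.39, 9.02 and 8.14 FPKM in Sham_GH, 33.0, 36.5 and 21.5 FPKM in PEL_3d_GH, and 14.3, 18.7 and 21.7 FPKM in PEL_10d_GH. The Sham, PEL_10d and PEL_3d levels formed 3 separate ranges, whereas PEL_3d_GH 3 at 21.5 FPKM fell just below the highest PEL_10d_GH library. The rise was 3.53-fold at day 3 (log2 fold change 1.82, SE 0.10, edgeR adjusted p = 3.31e-07) and 1.80-fold at day 10 (0.85, SE 0.12, adjusted p = 0.00377), and with the library labelled Sham 1 the adjusted p was 0.000724 and 0.0491. Within a library, the ratio of Pros1 to Gas6 in FPKM was 0.204 to 0.241 in Sham, 0.529 to 0.598 in PEL_3d and 0.321 to 0.351 in PEL_10d, so Gas6 stayed the more abundant of the pair in every library of these groups.

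Itgav is the alpha-v chain, which pairs with several beta chains (chromosome 2, 83724397 to 83806916, plus strand). Its level was 8.88 and 8.62 FPKM in Sham 2 and 3, 28.2, 20.6 and 25.0 FPKM in PEL_3d, and 12.2, 10.7 and 10.8 FPKM in PEL_10d. All lesioned libraries were above both Sham libraries, and day 10 lay much nearer to Sham than to day 3. The rise was 2.60-fold at day 3 (log2 fold change 1.38, SE 0.10, edgeR adjusted p = 2.89e-06) and 1.26-fold at day 10 (0.33, SE 0.08, adjusted p = 0.0348). The day 10 call was lost in 9 of 14 alternatives, among them those with the library labelled Sham 1 (log2 fold change 0.21, adjusted p = 0.629), without Sham 2 (adjusted p = 0.142) and without Sham 3 (adjusted p = 0.263). The exons of Itgav share 634 of their 10744 bases with those of Gm13684 on the other strand, whose reads cannot be told apart from those of Itgav where counting ignores strand.

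Itgb5, the beta-5 chain, had the largest rise of the 8 at day 3 (chromosome 16, 33829665 to 33949338, plus strand). Its level was 18.7 and 16.5 FPKM in Sham 2 and 3, 72.6, 67.3 and 79.8 FPKM in PEL_3d, and 39.4, 32.2 and 33.4 FPKM in PEL_10d. With GH it was 15.7, 15.8 and 14.5 FPKM in Sham_GH, 84.3, 84.5 and 66.9 FPKM in PEL_3d_GH, and 42.1, 47.5 and 44.0 FPKM in PEL_10d_GH. Sham, day 10 and day 3 formed 3 ranges without overlap, with and without GH. The rise was 4.01-fold at day 3 (log2 fold change 2.0, SE 0.10, edgeR adjusted p = 2.83e-07) and 1.88-fold at day 10 (0.91, SE 0.10, adjusted p = 0.00162). With the library labelled Sham 1 (22.8 FPKM) the adjusted p was 0.000935 at day 3 and 0.0686 at day 10. The ratio of Itgb5 to Itgav in FPKM was 1.91 to 2.11 in Sham, 2.58 to 3.26 in PEL_3d and 3.01 to 3.22 in PEL_10d.

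The 6 genes called higher at day 3 have the following 100 bases before their start site, shown as a description. Whether these genes share a regulator was not tested. They are from RefSeq for GRCm38.p6, written 5′ to 3′ on the strand of the gene, with capitals marking matches on either strand to the letters TTCNNNGAA (the STAT motif) or GGGCGG (the Sp1 motif).
Mertk, chr2:128698815-128698914, plus strand: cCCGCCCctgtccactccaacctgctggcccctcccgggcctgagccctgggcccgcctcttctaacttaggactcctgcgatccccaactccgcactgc
Axl, chr7:25788734-25788833, minus strand: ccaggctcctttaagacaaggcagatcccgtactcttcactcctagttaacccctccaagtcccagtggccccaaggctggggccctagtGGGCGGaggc
Gas6, chr8:13494536-13494635, minus strand: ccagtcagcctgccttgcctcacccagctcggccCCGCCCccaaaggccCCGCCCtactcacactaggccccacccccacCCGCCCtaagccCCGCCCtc
Pros1, chr16:62854207-62854306, plus strand: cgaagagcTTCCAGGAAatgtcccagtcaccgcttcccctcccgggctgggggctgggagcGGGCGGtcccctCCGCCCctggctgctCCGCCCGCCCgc
Itgav, chr2:83724297-83724396, plus strand: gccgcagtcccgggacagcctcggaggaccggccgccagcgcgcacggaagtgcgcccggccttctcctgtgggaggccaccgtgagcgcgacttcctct
Itgb5, chr16:33829565-33829664, plus strand: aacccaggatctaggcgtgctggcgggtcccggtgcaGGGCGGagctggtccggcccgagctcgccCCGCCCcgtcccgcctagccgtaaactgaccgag

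The promoter of Megf10 was not searched. Over the 250 bases before the start site, the STAT letters were found in Pros1 alone of the 7 genes searched (Tyro3 included), with the first base 92 bases before the start. The Sp1 letters were found in all of the 7 but Itgav. The AP-1 letters TGANTCA were found in none of the 7. Of 32851 mouse promoters of the same length, 7.02% held the STAT letters, 32.74% the Sp1 letters and 6.75% the AP-1 letters, on either strand. A match of letters is a description of the sequence and says nothing about binding.

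From day 3 to day 10 without GH, 5 of the 8 genes fell, against 12.2% of 14807 genes, and 1 rose, against 6.33%. Itgb5 fell by 1.09 on the log2 scale (SE 0.10, edgeR adjusted p = 9.3e-05), Itgav by 1.04 (SE 0.09, adjusted p = 7.13e-05) and Pros1 by 0.96 (SE 0.08, adjusted p = 6.85e-05), so each of these 3 was near 0.5 of its day 3 level. Mertk fell by 0.61 (SE 0.13, adjusted p = 0.00996) and Axl by 0.39 (SE 0.09, adjusted p = 0.0189), which was called in 10 of 14 alternatives, whereas the other 4 falls were called in all 14. Gas6 (−0.18, adjusted p = 0.143) and Tyro3 (0.28, adjusted p = 0.0614) did not pass the test. This comparison does not use the Sham libraries. Over all genes 938 were higher and 1804 lower at day 10, and 442 and 1494 with limma on log2(FPKM + 0.1).

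Megf10, the engulfment receptor of astrocytes, was the gene that rose between the lesion times. Its level was 4.66, 4.34 and 4.32 FPKM in PEL_3d and 5.12, 5.88 and 5.97 FPKM in PEL_10d. These ranges did not overlap, and Sham 2 and 3, at 4.64 and 4.92 FPKM, lay between them or at the upper edge of the day 3 range. The difference between the days was 1.28-fold (log2 fold change 0.36, SE 0.09, edgeR adjusted p = 0.0228), while neither day passed the test against Sham (−0.12, adjusted p = 0.284 at day 3, and 0.22, adjusted p = 0.207 at day 10). The call between the days held under 7 of 14 alternatives.

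The lesion was also compared with Sham among the groups that had received GH, which share no library with those above and do not involve the library labelled Sham 1. At day 3, 6 of the 8 genes were higher in PEL_3d_GH than in Sham_GH, against 26.9% of 14743 genes, and they were the 6 called without GH. Itgb5 rose 5.01-fold (log2 fold change 2.33, SE 0.10, edgeR adjusted p = 2.86e-07), Pros1 3.64-fold (1.86, SE 0.17, adjusted p = 1.88e-05) and Itgav 2.85-fold (1.51, SE 0.16, adjusted p = 3.62e-05). Mertk rose 2.83-fold (1.5, SE 0.15, adjusted p = 3.17e-05), Axl 2.11-fold (1.07, SE 0.11, adjusted p = 2.83e-05) and Gas6 1.38-fold (0.46, SE 0.06, adjusted p = 0.000211). Tyro3 (−0.17, adjusted p = 0.214) and Megf10 (0.11, adjusted p = 0.398) did not pass the test.

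At day 10 with GH, all 8 genes were higher in PEL_10d_GH than in Sham_GH, against 17.7% of 14686 genes. The order of the rises was Itgb5 (log2 fold change 1.49, SE 0.06, edgeR adjusted p = 4.77e-07), Pros1 (1.13, SE 0.14), Mertk (1.02, SE 0.13), Axl (0.71, SE 0.10) and Itgav (0.43, SE 0.10). The smallest were Tyro3 (0.35, SE 0.10, adjusted p = 0.0236), Gas6 (0.31, SE 0.08, adjusted p = 0.0112) and Megf10 (0.30, SE 0.09, adjusted p = 0.0291). For Tyro3 the libraries were 12.9, 10.6 and 9.79 FPKM in Sham_GH and 15.1, 14.7 and 13.2 FPKM in PEL_10d_GH, and for Megf10 they were 4.19, 4.94 and 4.59 FPKM and 5.33, 6.26 and 5.54 FPKM. Neither pair of ranges overlapped. Tyro3 was called in 11 of 14 alternatives (adjusted p up to 0.0893) and Megf10 in 9 of 14 (up to 0.123), and the other 6 genes in all 14. From day 3 to day 10 with GH, 4 genes fell (Itgav, Itgb5, Pros1 and Mertk), against 10.8% of 14838 genes, and 1 rose (Tyro3, log2 fold change 0.51, SE 0.09, adjusted p = 0.0086), against 4.81%. Itgav, Itgb5 and Tyro3 were called in all of 14 alternatives, Pros1 in 7 (adjusted p up to 0.152) and Mertk in 4 (up to 0.186). The 6 oligodendrocyte markers moved with Tyro3 here, all 6 being higher in PEL_10d_GH than in Sham_GH and than in PEL_3d_GH, with sums of 2153 to 2394 FPKM in Sham_GH, 2263 to 2670 in PEL_3d_GH and 3832 to 4315 in PEL_10d_GH. The neuronal markers had sums of 979 to 1108 FPKM in Sham_GH, 672 to 834 in PEL_3d_GH and 847 to 896 in PEL_10d_GH. The part of either cell type in the level of Tyro3 was not tested. Axl had a mean of 40.1 FPKM at day 3 and 30.3 FPKM at day 10 with overlapping libraries and did not pass the test (−0.37, adjusted p = 0.0922).

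**Figure D2:**
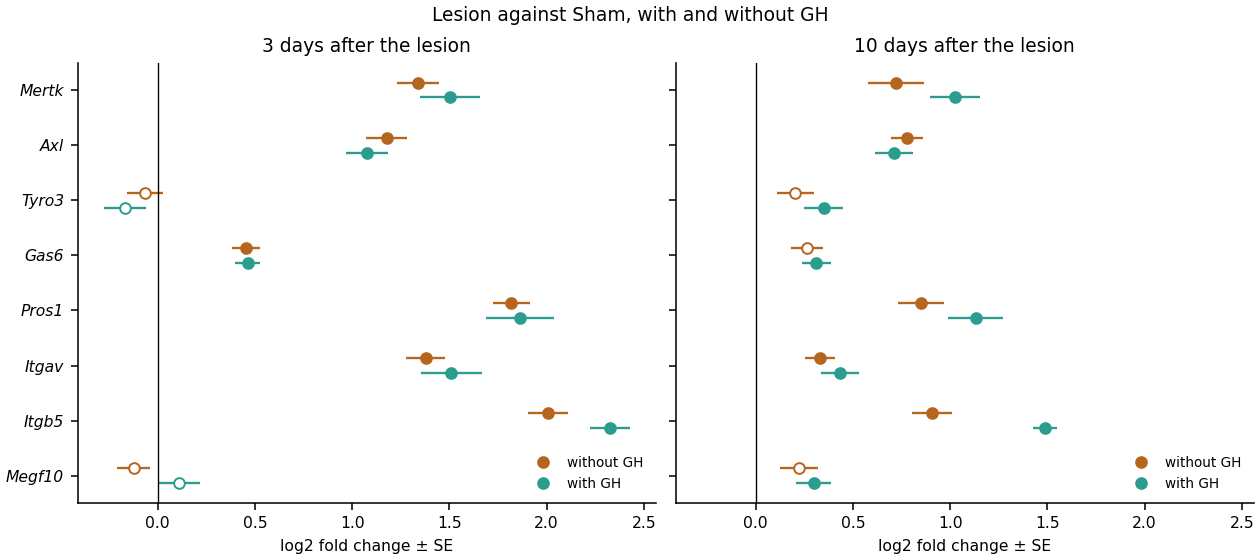
Log2 fold change of lesion against Sham (horizontal axis, with bars of 1 SE) for the 8 genes, at day 3 in the left panel and at day 10 in the right, without GH in brown (Sham 2 and 3 as controls) and with GH in green. Filled points passed an adjusted p of 0.05 and open points did not, and Itgb5 leads at both days, from 0.91 to 2.33.

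Whether the lesion changed these genes by another amount with GH than without was tested as a difference of the fold changes. None of the 8 passed at day 3 (edgeR, 0.0462% of 15164 genes called), where none had an unadjusted p under 0.05 (10.5% of all genes had), nor by DESeq2 (0.936% called). None passed at day 10 (edgeR, 0% of 15116 genes called). There Itgb5 had a difference of 0.58 on the log2 scale (SE 0.12, edgeR adjusted p = 0.156), the 1 gene of the 8 with an unadjusted p under 0.05, which 9.04% of all genes had, and it passed with DESeq2 (adjusted p = 0.00786), which called 0.635% of all genes.

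GH itself went with a higher level of Mertk in each of the 3 states. Without GH the libraries held 3.85 and 4.19 FPKM in Sham, and with GH 4.43, 5.74 and 6.17 FPKM. At day 3 they held 10.7, 9.20 and 11.03 FPKM without and 17.4, 17.2 and 12.5 FPKM with GH, and at day 10 they held 6.27, 5.91 and 7.99 FPKM without and 9.78, 11.7 and 12.2 FPKM with GH. The 2 ranges did not overlap in any state, with all 9 GH libraries above all libraries of their own state without it. The share of all genes without overlap was not counted. With so few libraries the smallest two-sided p of an exact permutation test is 0.1 for 3 against 3 and 0.2 for 3 against 2. With the library labelled Sham 1 (6.28 FPKM) the Sham ranges overlapped. The log2 fold change was 0.46 in Sham (SE 0.13, edgeR adjusted p = 0.131), 0.63 at day 3 (SE 0.13, adjusted p = 0.307) and 0.75 at day 10 (SE 0.13, adjusted p = 0.369), none of which passed the test.

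None of the other 7 genes passed in a GH comparison with edgeR either, and few genes of the whole table did, with 1.09% of 14539 called in Sham, 0.027% of 14798 at day 3 and 0% of 14763 at day 10. At an unadjusted p under 0.05 there were 4 of the 8 in Sham (Mertk, Axl, Gas6 and Itgb5), 2 at day 3 (Mertk and Gas6) and 2 at day 10 (Mertk and Itgb5), where 15%, 6.8% and 6.14% of all genes had such a p. DESeq2 called Mertk at day 3 (adjusted p = 0.00708), when it called 0.399% of all genes, and Mertk and Itgb5 at day 10 (adjusted p = 0.000279 and 0.0203), when it called 0.264%. At day 10 Itgb5 was 42.1, 47.5 and 44.0 FPKM with GH and 39.4, 32.2 and 33.4 FPKM without, which did not overlap.

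A mean of the GH effect over the 3 states was added after Mertk had been seen to be higher with GH in each of them, in 1 fit over the 17 hypothalamic libraries without the library labelled Sham 1. Mertk was 1.53-fold higher with GH (log2 fold change 0.61, SE 0.09, edgeR adjusted p = 0.00445) and was the only 1 of the 8 called, against 0.411% of 15337 genes. Since the same libraries prompted this comparison, its p is not independent evidence of the direction, and the 3 comparisons it averages did not pass. The adjusted p stayed between 1.2e-07 and 0.0472 under 24 of 25 alternatives, each library left out in turn among them, and was 0.245 with the library labelled Sham 1. Axl (0.12, SE 0.07, adjusted p = 0.592), Tyro3 (0.00, SE 0.06, adjusted p = 1) and Gas6 (0.17, SE 0.05, adjusted p = 0.178) did not pass. Pros1, Itgav, Itgb5 and Megf10 had adjusted p-values from 0.581 to 0.785. The ratio of Axl to Mertk in FPKM was 3.56 to 3.79 in PEL_3d and 2.32 to 2.74 in PEL_3d_GH, and 3.74 to 4.90 in PEL_10d and 2.35 to 3.00 in PEL_10d_GH. In Sham 2 and 3 it was 3.70 to 4.55 and in Sham_GH 2.86 to 4.26, which overlapped. In the hypothalamus Axl remained the more abundant receptor in every library.

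Markers of the cells that carry these genes are given beside the GH values. Of 8 microglial markers, none passed in any of the 3 GH comparisons, and neither did any of 8 markers of activated microglia or macrophages (5 of them tested in Sham) or of 7 astrocyte markers. These tests called 1.09% of all genes in Sham, 0.027% at day 3 and 0% at day 10, and Mertk in none. Such tests cannot show that the markers were unchanged. The summed FPKM of the microglial markers was 141 to 150 in Sham and 109 to 128 in Sham_GH, 613 to 658 in PEL_3d and 577 to 766 in PEL_3d_GH, and 295 to 324 in PEL_10d and 365 to 443 in PEL_10d_GH. These ranges overlapped at day 3, and were apart in Sham, where the sum was lower with GH, and at day 10, where it was higher. The sum of the activated microglia or macrophage markers was 1777, 1254 and 3087 in PEL_3d and 5305, 5140 and 2580 in PEL_3d_GH, higher with GH in 2 of the 3 libraries than in any without it, while at day 10 it was 182 to 620 and 249 to 736 and in Sham 41.7 to 49.5 and 28.8 to 53.4. For the astrocyte markers the sums were 550 to 559 and 554 to 573 in Sham, 628 to 662 and 654 to 734 at day 3, and 683 to 712 and 710 to 838 at day 10. For 6 reactive astrocyte markers they were 168 to 196 and 169 to 199 in Sham, 1271 to 1431 and 1006 to 1634 at day 3, and 527 to 640 and 663 to 1065 at day 10, where the ranges did not overlap, as those of the microglial markers did not. Neither did those of 6 oligodendrocyte markers at day 10, at 3290 to 3464 without GH and 3832 to 4315 with it. Of these 12 markers 1 was higher with GH in Sham by the test, and none at day 3 or day 10. Blood leukocyte sums were also apart at day 10 (4.21 to 10.6 without GH and 12.1 to 30.8 with it). In Sham, sums that were apart and lower with GH were those of endothelial markers (46.6 to 47.1 and 33.5 to 41.5) and oligodendrocyte precursors (84.5 to 88.7 and 78.6 to 81.1). So were those of hypothalamic markers (1314 to 1355 and 873 to 1255). The part of these cells in the level of Mertk was not tested.

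**Figure D3:**
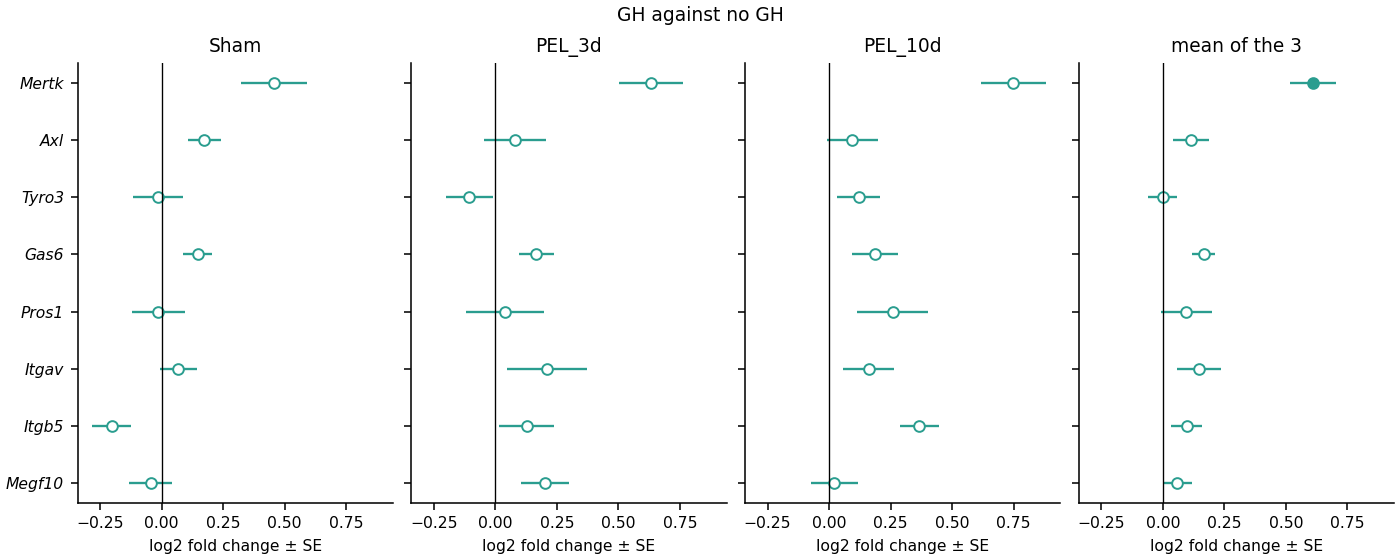
Log2 fold change of GH against no GH (horizontal axis, with bars of 1 SE) for the 8 genes in Sham (without the library labelled Sham 1), PEL_3d and PEL_10d, and as the mean of the 3. Filled points passed an adjusted p of 0.05, which only the mean for Mertk (0.61) did, in the panel added after its values were seen, and Mertk lies to the right of the other 7 in every panel.

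In the hippocampus the genes stood in another order. Tyro3 was at 20.2 and 20.6 FPKM in HIP_Sham 2 and 3 and at 27.3, 27.6 and 27.2 FPKM in HIP_PEL_10d, with no overlap. Gas6 was at 41.5 and 47.4 FPKM in HIP_Sham 2 and 3 and at 27.2, 28.3 and 26.7 FPKM in HIP_PEL_10d, also with no overlap. The library labelled HIP_Sham 1 held 11.1 FPKM of Tyro3 and 40.8 FPKM of Gas6. With all 6 hippocampal libraries none of the 8 genes passed with edgeR (0% of 14039 genes called, and 1 of the 8, Gas6, at an unadjusted p under 0.05, against 10.2% of all genes), and DESeq2 called Gas6 (adjusted p = 0.00558) when it called 1.66% of all genes. Without the library labelled HIP_Sham 1, 2 of the 8 passed, against 6.15% of 14191 genes. Gas6 was lower (log2 fold change −0.72, SE 0.07, edgeR adjusted p = 0.0017) and Tyro3 higher (0.40, SE 0.06, adjusted p = 0.00741). From HIP_Sham 2 and 3 to HIP_PEL_10d the neuronal sums went from 1817 to 1836 down to 1699 to 1763. The microglial sums were 146 to 148 and 157 to 204, and the oligodendrocyte sums overlapped (3175 to 3423 and 1985 to 4035). Of the hippocampal markers, Prox1, C1ql2 and Fibcd1 were higher without overlap and Neurod6 and Spink8 lower. The part of these cells in the level of Tyro3 was not tested.

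The markers of choroid plexus moved with Gas6 there. Their summed FPKM was 4318 and 5410 in HIP_Sham 2 and 3 and 133, 38.5 and 795 in HIP_PEL_10d, 5 of the 6 markers were lower without the library labelled HIP_Sham 1, and none was at 0 in a hippocampal library. The library labelled Sham 1, which had the highest sum of all, also had the highest Gas6. Within HIP_PEL_10d the order was the other way, with 28.3 FPKM of Gas6 beside the lowest sum (38.5) and 26.7 FPKM beside the highest (795). The filled hypothalamic libraries held 37.5 to 60.8 FPKM of Gas6 with sums of 7.3 to 25.05. The part of choroid plexus tissue in the hippocampal level of Gas6 was not tested. The other 6 genes overlapped or differed little between HIP_PEL_10d and HIP_Sham, with log2 fold changes from −0.15 (Megf10) to 0.28 (Pros1) without the library labelled HIP_Sham 1, and adjusted p-values of at least 0.239. Mertk was 6.08 and 6.67 FPKM in HIP_Sham 2 and 3 and 5.24, 6.60 and 7.64 FPKM in HIP_PEL_10d, and the Axl level of 9.61 to 11.8 FPKM in HIP_PEL_10d was below that of every filled hypothalamic library.

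The difference of the day 10 lesion effect between the tissues was tested with Sham 2 and 3 and HIP_Sham 2 and 3 as controls. It passed for 3 of the 8 genes, against 10.7% of 15053 genes. Gas6 differed by 0.96 on the log2 scale (SE 0.12, edgeR adjusted p = 0.000793), Itgb5 by 0.91 (SE 0.15, adjusted p = 0.00434) and Axl by 0.52 (SE 0.14, adjusted p = 0.0391), each with the larger value in the hypothalamus. Gas6 and Itgb5 were called in 18 of 19 alternatives and Axl in 9 of 19. Over all genes 981 values were higher and 635 lower, and 894 and 356 with limma on log2(FPKM + 1). Mertk (0.69, SE 0.23, adjusted p = 0.0805) and Pros1 (0.54, SE 0.23, adjusted p = 0.163) did not pass. With the libraries labelled Sham 1 and HIP_Sham 1 in the fit, none of the 8 passed, and Gas6 differed by 0.38 (adjusted p = 0.67), Itgb5 by 0.76 (adjusted p = 0.0999) and Axl by 0.95 (adjusted p = 0.203). Itgb5 itself was flat in the hippocampus, at 14.8 and 16.3 FPKM in HIP_Sham 2 and 3 and 17.9, 14.3 and 14.7 FPKM in HIP_PEL_10d.

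Between the lesioned tissues at day 10, which involve neither library that went against its label, 5 of the 8 genes were higher in the hypothalamus (against 30.9% of 14561 genes) and 1 was lower (against 29.7%). Pros1 was 2.90-fold higher (log2 fold change 1.53, SE 0.14, edgeR adjusted p = 1.46e-05), Axl 2.21-fold (1.14, SE 0.09, adjusted p = 5.25e-06), Itgb5 1.90-fold (0.93, SE 0.10, adjusted p = 4.24e-05), Gas6 1.41-fold (0.50, SE 0.07, adjusted p = 0.00035) and Itgav 1.17-fold (0.23, SE 0.06, adjusted p = 0.0095). Tyro3 was 2.46-fold lower in the hypothalamus (−1.30, SE 0.07, adjusted p = 8.48e-07). Mertk (−0.20, SE 0.16, adjusted p = 0.316) and Megf10 (0.30, SE 0.13, adjusted p = 0.0679) did not pass. With limma on log2(FPKM + 0.1), which differs in scale, test and filter, the median of all genes in this comparison was 0.25 in place of 0.02, with 6298 higher and 2417 lower over all genes in place of 4502 and 4321. There Itgav was at 0.47, Megf10 at 0.54 and Mertk at 0.05, of which the value of Mertk is of the other sign and lies below the median of all genes.

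**Figure D4:**
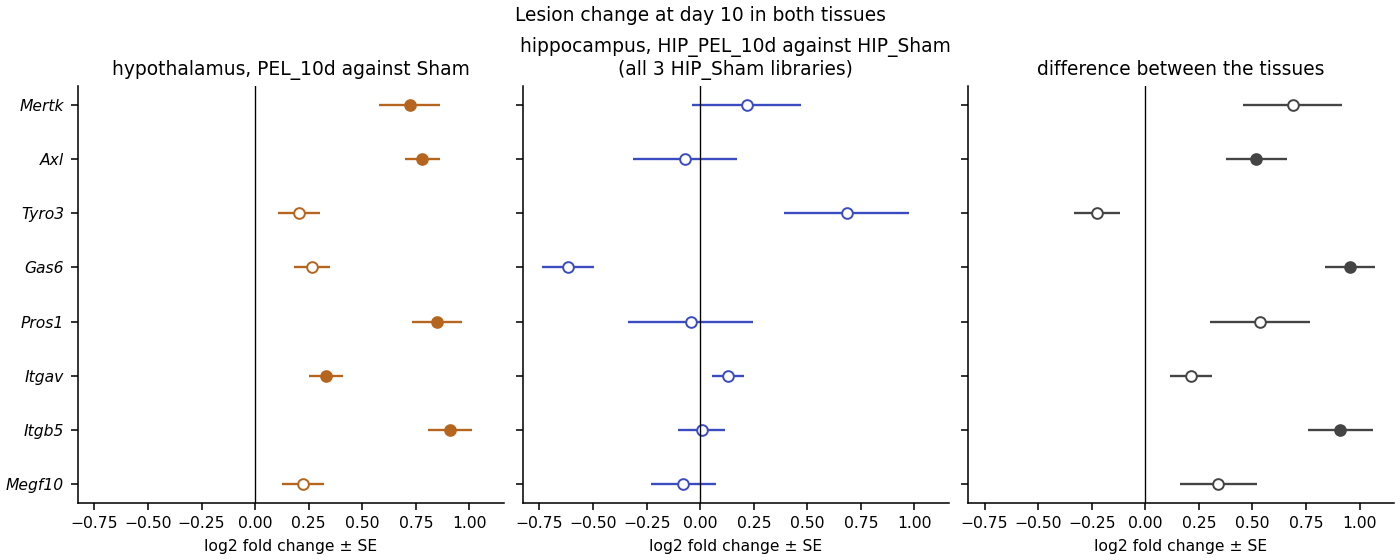
Log2 fold change (horizontal axis, the same in each panel, with bars of 1 SE) at day 10 against Sham in the hypothalamus (Sham 2 and 3), in the hippocampus with all 3 HIP_Sham libraries, and the difference of the effects without the libraries labelled Sham 1 and HIP_Sham 1. Filled points passed an adjusted p of 0.05, and in the hippocampal panel none did, with Gas6 at −0.62 and Tyro3 at 0.68. The hippocampal panel and the difference rest on other HIP_Sham libraries, so the last panel is not the difference of the panels before it.

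Over the 17 hypothalamic libraries without the library labelled Sham 1, the levels of 6 of the genes varied together. Pearson's r of log2(FPKM + 0.1) among Mertk, Axl, Gas6, Pros1, Itgav and Itgb5 ran from 0.836 (Mertk and Itgav) to 0.979 (Pros1 and Itgb5). Tyro3 had an r of −0.469 to −0.1 with these 6 and of 0.491 with Megf10, and Megf10 had one of −0.074 to 0.257 with the 6. These are descriptions, since the libraries share the lesion times and treatments of their groups. By the same measure over 13395 genes with a mean of at least 1 FPKM, the nearest gene to Itgb5 was Lyn, a Src-family kinase of myeloid cells (0.996), followed by Rnase4 and Tent5c (both 0.995). Those nearest to Axl were Nfatc1 (0.985), Cebpa, a transcription factor of myeloid cells, and Lamp2, a protein of the lysosomal membrane (both 0.981). Pros1 was nearest to Pabpc1 (0.991), Msn (0.988) and Arhgdib (0.987), and Itgav to Cyfip1 (0.985), Tpm4 (0.984) and Ybx1 (0.983). The neighbours of Gas6 were Mgat4b (0.971), Ccnd3 (0.965) and the growth factor Igf1 (0.964). Those of Mertk were other genes, namely Selenop, a selenium carrier (0.974), the syndecan Sdc4 (0.964) and Ankrd13a (0.952). Tyro3 was nearest to Prr18 (0.921), Adra2a (0.883) and Tmeff2 (0.854), and Megf10 to Sugct (0.862), Efcab14 (0.843) and Slc12a2 (0.842).

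Markers of several cell types moved with the 6 genes. At day 3 all 8 microglial and all 8 activated microglia or macrophage markers were higher than in Sham, and at day 10 5 and 8 of them were. The summed FPKM of the activated list was 41.7 to 49.5 in Sham, 1254 to 3087 in PEL_3d and 182 to 620 in PEL_10d, and its marker Mmp12 was at 0 in Sham 3. All 6 reactive astrocyte markers were higher at day 3 and 5 at day 10, with sums of 168 to 196 in Sham, 1271 to 1431 in PEL_3d and 527 to 640 in PEL_10d. Of 5 endothelial markers 4 and then 3 were higher (46.6 to 47.1, 78.2 to 94.02 and 57.9 to 66.6), and of 5 leptomeningeal markers 4 and then 5 (47.2 to 50.1, 99.5 to 197 and 88.7 to 188). All 4 markers of oligodendrocyte precursors were higher at day 3 and none at day 10 (84.5 to 88.7, 117 to 129 and 89.9 to 104), and of 3 pericyte markers 2 and then 1 (33.3 to 34.9, 51.3 to 63 and 36.7 to 48.6). Of 6 oligodendrocyte markers none was higher at day 3 and 3 were at day 10 (2030 to 2813, 2283 to 2377 and 3290 to 3464). Of 7 astrocyte markers, 5 were higher and 2 lower at day 3 and 2 higher at day 10, and of 5 neuronal markers 4 were lower at day 3 and 1 at day 10. Of 6 blood leukocyte markers 4 were tested, of which 4 were higher at day 3 and 2 at day 10, with sums of 1.33 to 4.88 in Sham, 7.77 to 26.0 in PEL_3d and 4.21 to 10.6 in PEL_10d. The hypothalamic markers had sums of 1314 to 1355 in Sham, 859 to 985 in PEL_3d and 925 to 1171 in PEL_10d. For the choroid plexus markers they were 18.8 to 21.6, 7.3 to 13.2 and 16.6 to 21.4. The part of these cells in the levels of the 6 genes was not tested.

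The other genes of the pathway are given from 6 lists that hold 60 genes, of which 57 were tested. At day 3, 36 were higher and 6 lower than in Sham (median log2 fold change 0.68), and at day 10, 24 were higher and 1 lower (median 0.37). Over all genes 22.2% were higher and 18.2% lower at day 3, and 7.97% and 1.43% at day 10. Of 14 other phosphatidylserine or engulfment receptors tested, 11 were higher and 2 lower at day 3, and 8 higher at day 10. Of 10 other bridging molecules and opsonins, 7 were higher and 2 lower at day 3, and 7 higher and 1 lower at day 10. Engulfment signalling had 6 of 13 higher at day 3 and 4 at day 10. The find-me, eat-me and do-not-eat-me signals had 6 of 10 higher and 2 lower at day 3 and 2 higher at day 10, TAM processing had 4 of 8 higher and then 2, and the other partners of Itgav had 3 of 3 tested higher and then 1.

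The largest rises in these lists were in genes that Sham hardly held. Cd300lf, a phosphatidylserine receptor of myeloid cells, had 0 counts in Sham 2 and 3, 119, 80 and 182 in PEL_3d and 40, 19 and 51 in PEL_10d, which against a floor of 3 counts per Sham library is at least 40.4-fold higher at day 3 and at least 11.9-fold higher at day 10. Cd300lb, of the same family, had 1 count in each of Sham 2 and 3 and 74, 17 and 93 in PEL_10d. Msr1, a scavenger receptor of macrophages, had 8 and 5 counts in Sham 2 and 3 and 717, 498 and 848 in PEL_3d (log2 fold change 6.61, SE 0.34, edgeR adjusted p = 2.71e-07). Lgals3, a galectin that serves as an opsonin for Mertk, had 17 and 21 counts in Sham 2 and 3, 1684, 1298 and 2270 in PEL_3d and 1395, 271 and 972 in PEL_10d (6.43, SE 0.30, adjusted p = 1.54e-07, and 5.46, SE 0.82, adjusted p = 0.00512). The largest falls at day 3 were in Tub (−0.51, SE 0.07, adjusted p = 0.000231), whose product has been described as a bridging molecule for Mertk, in Cx3cl1, the neuronal find-me chemokine (−0.44, SE 0.06, adjusted p = 0.000322), and in Adgrb1, the engulfment receptor BAI (−0.43, SE 0.07, adjusted p = 0.00091). At day 10 Tub alone was lower (−0.31, SE 0.07, adjusted p = 0.0225).

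The direct partners of the 8 genes did not all move with them. Mfge8, the bridging molecule of the integrin, had a log2 fold change of 0.07 at day 3 (SE 0.09, edgeR adjusted p = 0.606) and 0.28 at day 10 (SE 0.18, adjusted p = 0.377). Adam17, the protease known to shed Mertk from the cell surface, was 2.78-fold higher at day 3 (1.47, SE 0.11, adjusted p = 3.05e-06) and 1.72-fold at day 10 (0.78, SE 0.16, adjusted p = 0.0189). Ggcx and Vkorc1, of the vitamin K cycle that carboxylates Gas6 and protein S, did not pass at either day (adjusted p from 0.106 to 0.92). Of the other beta chains that pair with Itgav, Itgb3 was 3.98-fold higher at day 3 (1.99, SE 0.19, adjusted p = 2.06e-05), Itgb1 2.06-fold (1.04, SE 0.09, adjusted p = 8.44e-06) and Itgb8 1.38-fold (0.47, SE 0.07, adjusted p = 0.000604), while Itgb6 was not tested for low counts. Socs3, an inhibitor of cytokine signals that TAM receptors are known to induce, was 5.66-fold higher at day 3 (2.50, SE 0.17, adjusted p = 1.85e-06) and had an adjusted p of 0.125 at day 10.

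**Figure D5:**
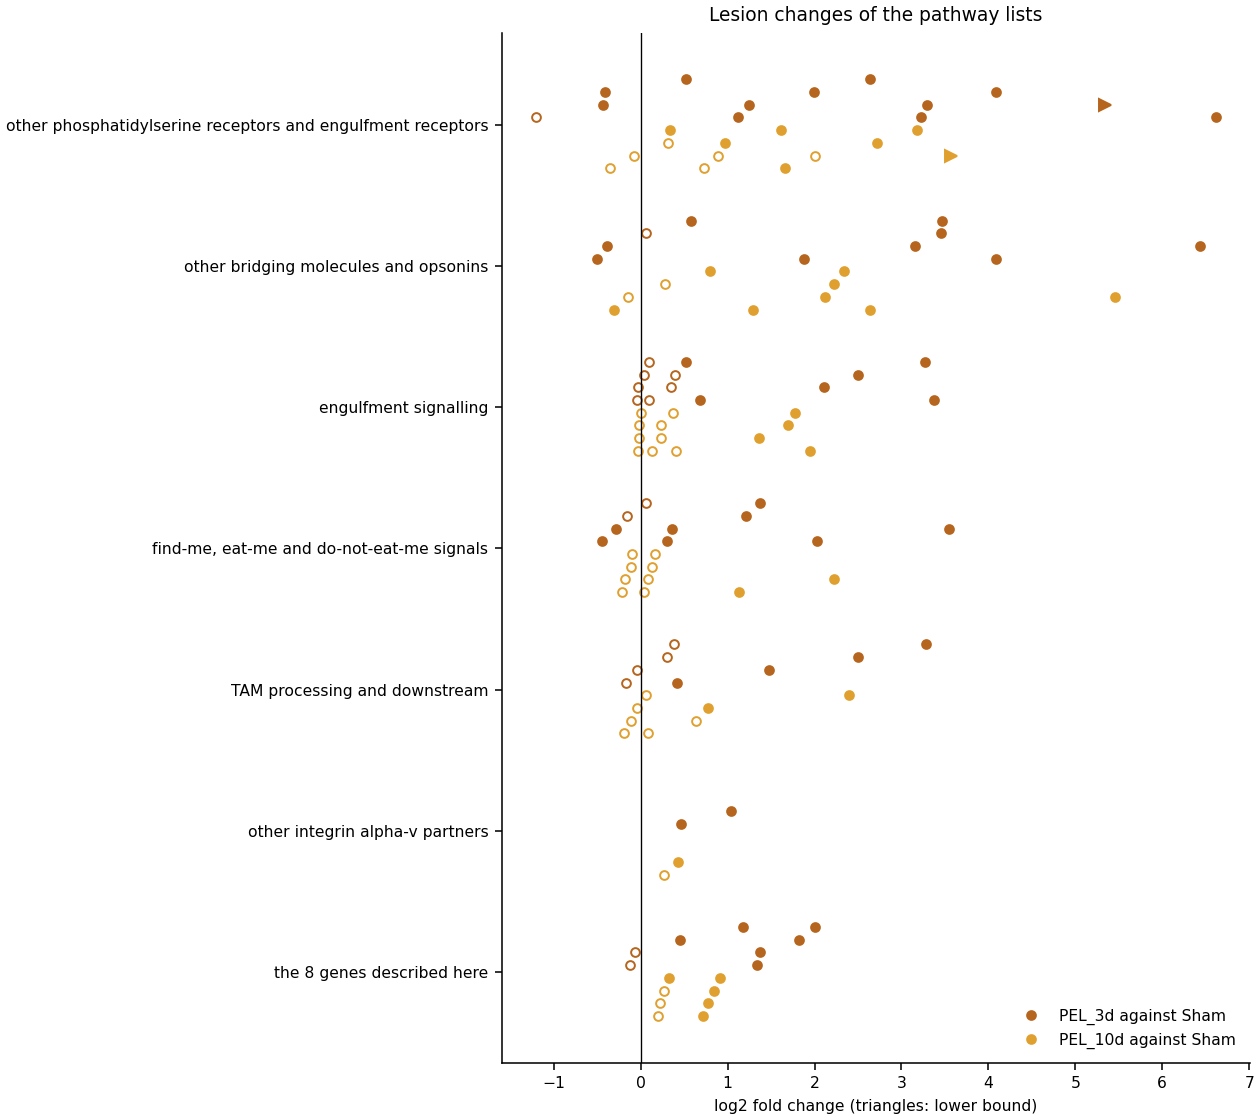
Log2 fold change against Sham 2 and 3 (horizontal axis) of each tested gene of the 6 pathway lists and of the 8 genes (vertical axis), at day 3 in brown and day 10 in yellow. Filled points passed an adjusted p of 0.05, triangles are lower bounds for Cd300lf against the floor of 3 counts, Cd300lb (1 count in each of Sham 2 and 3) is not drawn, Itgb3 is drawn once, and most filled points lie right of 0.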

How the data were processed

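RNA was extracted with a Rneasy kit and libraries were made with a SMARTER mRNA kit, per the labels. Reads were aligned with Hisat2 and counted per gene with featureCounts by the authors, and the submitters' processing notes name GRCm38 and mm10. Each gene has, in the table that the authors deposited, an estimated count for every library and an FPKM, which is scaled by gene length and library size. Of the deposited estimated counts 8.22% were not whole, none of them in the 8 genes, and they were rounded. Whether counting used strand is not given in the sources used here.

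Groups, replicate numbers and days were taken from the labels. Counts were tested by quasi-likelihood F tests (edgeR 4.0.16, R 4.3.3) with TMM scaling, filterByExpr with a minimum count of 10, and Benjamini-Hochberg adjustment over all genes tested, at a threshold of 0.05. Only the groups compared entered a fit, and a p-value that is not credited to another tool is from edgeR. The library labelled Sham 1 was left out of the fits with Sham, and HIP_Sham 1 also out of the tissue difference. The alternatives were DESeq2 size factors in edgeR, DESeq2 1.42.0, limma 3.58.1 on log2(FPKM + 0.1) and on log2(FPKM + 1) for genes with a mean of at least 0.5 FPKM, no filter, a minimum mean count of 50, a replicate block, 1 fit over all hypothalamic groups (both tissues for the tissue difference), the libraries that had been left out, and each library left out in turn. The mean GH effect was added after the values were seen. The floor of 3 counts covers counting error only. The fits were tested on simulated data.

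The genes named were the 8, the 3 nearest to each by Pearson's r, the 3 largest rises and falls of the pathway lists at each day, and direct partners of the 8. The genes and all lists, of pathways and of cell type markers, were chosen with earlier results of these data known, so no count over a list is independent evidence. Gene symbols were matched by identifier for 22219 genes, positions are from GENCODE M21, and promoters are from RefSeq. Protein sequences were not used here.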

Additional observations from a re-analysis of the deposited data

Results flagged for a closer look

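The lesion effect at day 10 differed between hypothalamus and hippocampus for Gas6 (0.96 on the log2 scale), Itgb5 (0.91) and Axl (0.52), each by a test of the difference itself with edgeR (adjusted p = 0.000793, 0.00434 and 0.0391). Over 19 alternatives Gas6 and Itgb5 were called in 18 and Axl in 9 (adjusted p up to 0.203). Gas6 was lower after the lesion in the hippocampus, where the summed choroid plexus markers fell with it, and their part in the difference was not tested. Itgb5 overlapped between HIP_Sham 2 and 3 and HIP_PEL_10d, and so did Axl, at 8.37 and 10.04 FPKM against 11.12, 9.61 and 11.76 FPKM. With the libraries labelled Sham 1 and HIP_Sham 1 in the fit, none of the 3 differences passed (adjusted p = 0.67, 0.0999 and 0.203). Groups held 3 libraries or fewer, so no library was tested for standing apart from its group.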

How the results depend on the processing

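Of 120 values (8 genes in 15 comparisons), 46 were called, and 1 of these changed sign, that of Gas6 at day 3 with the library labelled Sham 1 (−0.0327). Of the 60 values called in no fit, 26 changed sign under some alternative. With the libraries that went against their labels, the genes called out of the 8 were 2 in place of 5 at day 10 against Sham, 0 in place of 3 for the tissue difference and 0 in place of 1 for the mean GH effect. DESeq2 called 1 for GH at day 3, 2 for GH at day 10, 1 in the hippocampus and 1 for the GH difference at day 10, where edgeR called 0. From day 3 to day 10 with GH, limma called 3 in place of 5 on either FPKM scale, without Mertk and Pros1. Over all genes, Sham_GH against Sham gave 116 higher and 43 lower in edgeR, 194 and 72 in DESeq2, 252 and 107 without the filter, 11 and 2 in 1 fit over all hypothalamic groups, 4 and 2 or 3 and 2 with limma, and 0 and 0 with the library labelled Sham 1. With that library the counts over all genes were 1530 higher and 153 lower at day 3 (3316 and 2719 without it), 265 and 4 at day 10 (1180 and 212), 93 and 1 for the tissue difference (981 and 635) and 10 and 1 for the mean GH effect (54 and 9). At day 10 limma gave 855 and 72 on log2(FPKM + 0.1) and 771 and 65 on log2(FPKM + 1). From day 3 to day 10 with GH, the fit over all hypothalamic groups gave 1771 and 2350 (713 and 1602). DESeq2 gave 50 and 9 for GH at day 3 (4 and 0), 32 and 7 for GH at day 10 (0 and 0), 39 and 192 in the hippocampus (0 and 0), 35 and 107 for the GH difference at day 3 (1 and 6), 47 and 49 at day 10 (0 and 0) and 121 and 43 for the mean GH effect. With all libraries of the fit kept, the settings other than DESeq2 gave between 0 and 12 genes in a direction for the GH comparisons of lesioned mice, their differences and the hippocampus. The cause was not tested.

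Whether replicate numbers pair the samples was not settled. The deviations of same-numbered libraries from their group means had correlations from −0.44 to 0.373. All were positive in PEL_10d against PEL_3d (0.099, 0.373 and 0.103) and all negative in PEL_3d_GH against PEL_3d (−0.085, −0.44 and −0.403). In PEL_10d against PEL_3d the replicate block gave 1266 higher and 2101 lower over all genes, in place of 938 and 1804. With the replicate block, 3 of the 8 genes in place of 5 were called from day 3 to day 10 with GH (189 higher and 920 lower over all genes), and 1 in place of 0 for GH in Sham (Mertk, adjusted p = 0.00231, with 197 higher and 120 lower over all genes).

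Leaving out each library in turn gave 2 to 5 called at day 10 against Sham (2 without Sham 3 and 3 without Sham 2, where the lone Sham library is assumed to vary like the other group). It gave 4 to 8 from day 3 to day 10 (8 without PEL_10d 1, where 1093 were higher and 1706 lower of 14929 genes) and 3 to 6 for the same with GH (3 without PEL_3d_GH 1 or 2 or PEL_10d_GH 1 or 2, and 6 without PEL_3d_GH 3). It gave 0 to 1 for GH at day 3 (1 without PEL_3d_GH 3), 0 to 2 in the hippocampus (2 without HIP_Sham 1), 0 to 1 for the GH difference at day 10 (1 without PEL_10d 1) and 2 to 5 for the tissue difference (5 without HIP_PEL_10d 1, where 1385 were higher and 859 lower of 15031 genes). Over all genes, leaving out Sham 2 or Sham 3 gave 193 higher and 12 lower or 285 and 19 at day 10, 2250 and 1144 or 2382 and 1505 at day 3, 33 and 19 or 32 and 13 for GH in Sham, and 22 and 2 or 26 and 1 for the mean GH effect. Without PEL_3d_GH 3 there were 48 and 8 for GH at day 3, 167 and 466 for the GH difference at day 3, 1984 and 2451 from day 3 to day 10 with GH, and 79 and 18 for the mean GH effect, which gave 37 and 4 without PEL_10d 2. There were 11 and 37 for the GH difference at day 10 without PEL_10d 1, 296 and 577 in the hippocampus without HIP_Sham 1, and 37 and 7 for GH in Sham without Sham_GH 1. From day 3 to day 10 the lowest totals were of 275 and 1058 (without PEL_3d 3), with GH 122 and 582 (without PEL_3d_GH 1), and for the tissue difference 460 and 142 (without HIP_Sham 3). Sham is labelled day 0, so time since surgery and the lesion cannot be told apart.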
